A study of Mus musculus with 18 samples.

Results

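The genes described here encode the machinery that loads, docks and fuses synaptic vesicles. They comprise 44 of the 46078 genes in the RNA-seq table, taken by name from 6 groups of known function, and they were followed in every RNA-seq library. Their promoters were followed through the ATAC-seq peaks whose middle lay within 1000 bp of an annotated transcript start. These start-site peaks numbered 58 of the 111664 peaks in the table, and 42 of the 44 members had at least 1, the exceptions being Syt4 and Rims3.

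In neurons and neuroendocrine cells, a vesicle fuses when the SNARE protein of the vesicle (synaptobrevin, encoded by the Vamp genes) zips together with syntaxin and SNAP-25 on the plasma membrane. Synaptotagmins sense the calcium that triggers this step, complexins hold the partly assembled complex, Rab3 GTPases bring vesicles to the membrane, and the RIM, Munc13, Bassoon and Piccolo scaffolds prime them there. Small cell lung cancer is a neuroendocrine tumor, and synaptophysin (Syp) is one of the proteins by which pathologists recognise it. SNAP-23 and VAMP3 (cellubrevin) are paralogs that serve constitutive fusion in cells of most kinds.

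Tumors were raised in mice whose conditional alleles were labelled Rb1L/L, Rbl1L/L and p53L/L (TKO); the description of the tumor model names Rbl2 in place of Rbl1. CARM1 knockout tumors (TKO;Carm1KO) carried conditional Carm1L/L alleles as well, and NFIB mutant tumors (TKO;NfibR388K) carried a germline knock-in that changes an arginine of NFIB to lysine. All 3 genotypes received adenovirus-Cre into the airways at 8 weeks of age and were analysed 28 weeks later, on a mixed C57BL/6;FVB129/N background. Each genotype had 3 RNA-seq and 3 ATAC-seq libraries. The conditional alleles were deleted in any cell that the virus reached, whereas the Nfib allele was carried by every cell of the animal. The promoter driving Cre was not given in the sources used here, and cells were described both as tumor biopsies and as cancer cells sorted on a Cre-dependent tdTomato reporter.

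RNA-seq libraries held 15848866 to 20915057 counts over genes, and ATAC-seq libraries 26917178 to 47653979 counts over peaks. Values below are counts per 1000000 counts (CPM) scaled by edgeR's TMM factors. Before that scaling, 3 counts corresponded to 0.143 to 0.189 CPM in the RNA-seq libraries. Where the 3 libraries of a mutant held 3 or fewer counts of a gene in all, the gene was still tested, and a ratio is given in place of the fold change. The targeted genes were examined first. Counts over the whole Carm1 gene (97.7, 103 and 44.5 CPM in TKO, 63.4, 79.1 and 50.8 CPM in libraries labelled CARM1 knockout, and 100.4, 104 and 102 CPM in NFIB mutant libraries) overlapped between TKO and both mutants, with log2 fold changes against TKO of -0.34 (adjusted p = 0.410) and 0.32 (adjusted p = 0.426), while the CARM1 knockout libraries were all below the NFIB mutant ones. The exons that Cre removes were not given in the sources used here, so these counts do not check the label, and CARM1 knockout stands below for the libraries so labelled. Nfib, in which the knock-in changes a residue and removes no exon, was at 420.2, 579.9 and 571 CPM in TKO, 74.5, 216 and 87.2 CPM in CARM1 knockout, and 105, 83.3 and 91.4 CPM in NFIB mutant libraries. It fell in both mutants, by 2.06 and 2.49 on the log2 scale (adjusted p = 0.00799 and 0.00325).

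The labelled cell type was checked against 12 neuroendocrine marker genes that are not members. Their summed level was 1762 to 4278 CPM in TKO, 59.6 and 188 CPM in CARM1 knockout replicates 1 and 2, 2249 CPM in CARM1 knockout replicate 3, and 33.5 to 51.1 CPM in NFIB mutant libraries. Of the 12, 1 was called lower in CARM1 knockout against 11 in NFIB mutant tumors, and without CARM1 knockout replicate 3 it was 11 in CARM1 knockout too. The summed level of 8 fibroblast genes went the other way, with 20.3 to 73.2 CPM in TKO, 15335 to 27006 CPM in CARM1 knockout and 10639 to 16803 CPM in NFIB mutant libraries, and CARM1 knockout replicate 3 was the highest of the 9. All 8 were called higher in CARM1 knockout and 7 of 8 in NFIB mutant tumors. Sums of the other marker lists reached at most 54.3 CPM in TKO and 2702 CPM in mutant libraries for leukocyte genes, 21.3 and 74.0 CPM for endothelium (both mutant maxima in CARM1 knockout replicate 3), 45.9 and 2212 CPM for lung epithelium (in NFIB mutant replicate 1), and 113 and 60.1 CPM for Schwann cells. In tumor tissue or sorted cells taken in bulk, fewer cells of a type and less RNA per cell cannot be told apart, and the part of these marker differences in the results below was not tested.

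Sequence at the start sites is shown first, because 3 members hold exact copies of a known neuronal silencer element near a transcript start. This element, RE1, is the site bound by REST, a repressor of neuronal genes in non-neuronal cells. Its 15-letter core, written here as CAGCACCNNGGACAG with N for any base, was searched on both strands of 1000 bp windows centred on the start-site peaks (GRCm38, bases from RefSeq). An exact copy lay in 3 of 58 member windows (5.17%) and in 38 of 20871 start-site windows of all genes (0.182%). With at most 1 mismatch, 5 member windows (8.62%) and 201 of all windows (0.963%) held a match, and with at most 2 mismatches 11 (19.0%) and 1761 (8.44%). These are matches to letters, with no test, and do not show that REST bound there. The matches with at most 1 mismatch are printed 5′ to 3′ on the strand of the match, with the core in capitals.
Snap25, chr2:136714284-136714310, plus strand, intron, no mismatch: ggagctCAGCACCCTGGACAGgagtgc
Snap25, chr2:136714334-136714360, plus strand, intron, no mismatch: acctttCAGCACCGCGGACAGcgatcc
Syp, chrX:7638733-7638759, plus strand, exon, no mismatch: gcgctcCAGCACCGTGGACAGagcccg
Syt7, chr19:10403277-10403303, plus strand, intron, no mismatch: agtgttCAGCACCAAGGACAGggatat
Slc17a6, chr7:51621858-51621884, minus strand, upstream of the gene, 1 mismatch: gcatttCAGGACCACGGACAGaggaag
Syn1, chrX:20921128-20921154, minus strand, upstream of the gene, 1 mismatch: cggattCAGCACCGCGGTCAGagcctt

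The Snap25 copies stand 819 and 869 bp downstream of the transcript start and lie close together in a 105-base run (chr2:136714270-136714374, plus strand, both cores in capitals).
Snap25 intron: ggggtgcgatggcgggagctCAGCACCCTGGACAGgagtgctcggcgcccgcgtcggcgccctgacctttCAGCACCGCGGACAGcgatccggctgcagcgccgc
The Syn1 match stands at -137 bp from the start, inside the RefSeq promoter (GRCm38.p6, chrX:20920869-20921168, minus strand, read in the direction of the gene, match in capitals).
Syn1 promoter: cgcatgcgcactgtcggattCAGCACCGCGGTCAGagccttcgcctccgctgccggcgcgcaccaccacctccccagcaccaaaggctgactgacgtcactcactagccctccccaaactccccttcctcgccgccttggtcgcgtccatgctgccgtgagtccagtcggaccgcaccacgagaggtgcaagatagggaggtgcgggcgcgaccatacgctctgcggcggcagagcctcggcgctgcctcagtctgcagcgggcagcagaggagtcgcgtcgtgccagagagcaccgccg
The Syp match lay at -559 bp from the transcript start nearest to its peak, in an exon of a transcript that starts earlier. Rest itself was expressed at 4.18, 6.69 and 5.63 CPM in TKO, 60.1, 60.5 and 50.1 CPM in CARM1 knockout and 57.5, 63.9 and 47.3 CPM in NFIB mutant libraries. Its log2 fold change was 3.37 ± 0.24 (SE, adjusted p = 0.000331) in CARM1 knockout and 3.35 ± 0.24 (SE, adjusted p = 0.000257) in NFIB mutant tumors, and the mutant libraries did not overlap TKO. The palindrome of the NFI family, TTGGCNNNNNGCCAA, was in 0 of 58 member windows and 0.149% of all windows.

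In TKO tumors, levels per gene length were compared as transcripts per 1000000 (TPM, mean ± SD, n = 3). Syt11 (244 ± 70.7), Cplx1 (209 ± 92.9), Snap25 (148 ± 135), Vamp2 (131 ± 56.4), Cplx2 (125 ± 36.4) and Rab3a (115 ± 50.9) led the members, and neighbours in this order did not differ beyond their SD. The lowest members were Unc13c (0.0300 ± 0.0350 TPM) and Slc18a1 (0.847 ± 0.623 TPM). Of 35 members at 10 CPM or more in TKO, 8 differed by more than 4 times between TKO animals, namely Snap25, Syt4, Syt7, Syt13, Syn2, Sv2b, Sv2c and Unc13b. The heat map of all members by library shows this spread beside the differences between genotypes.

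**Figure D1:**
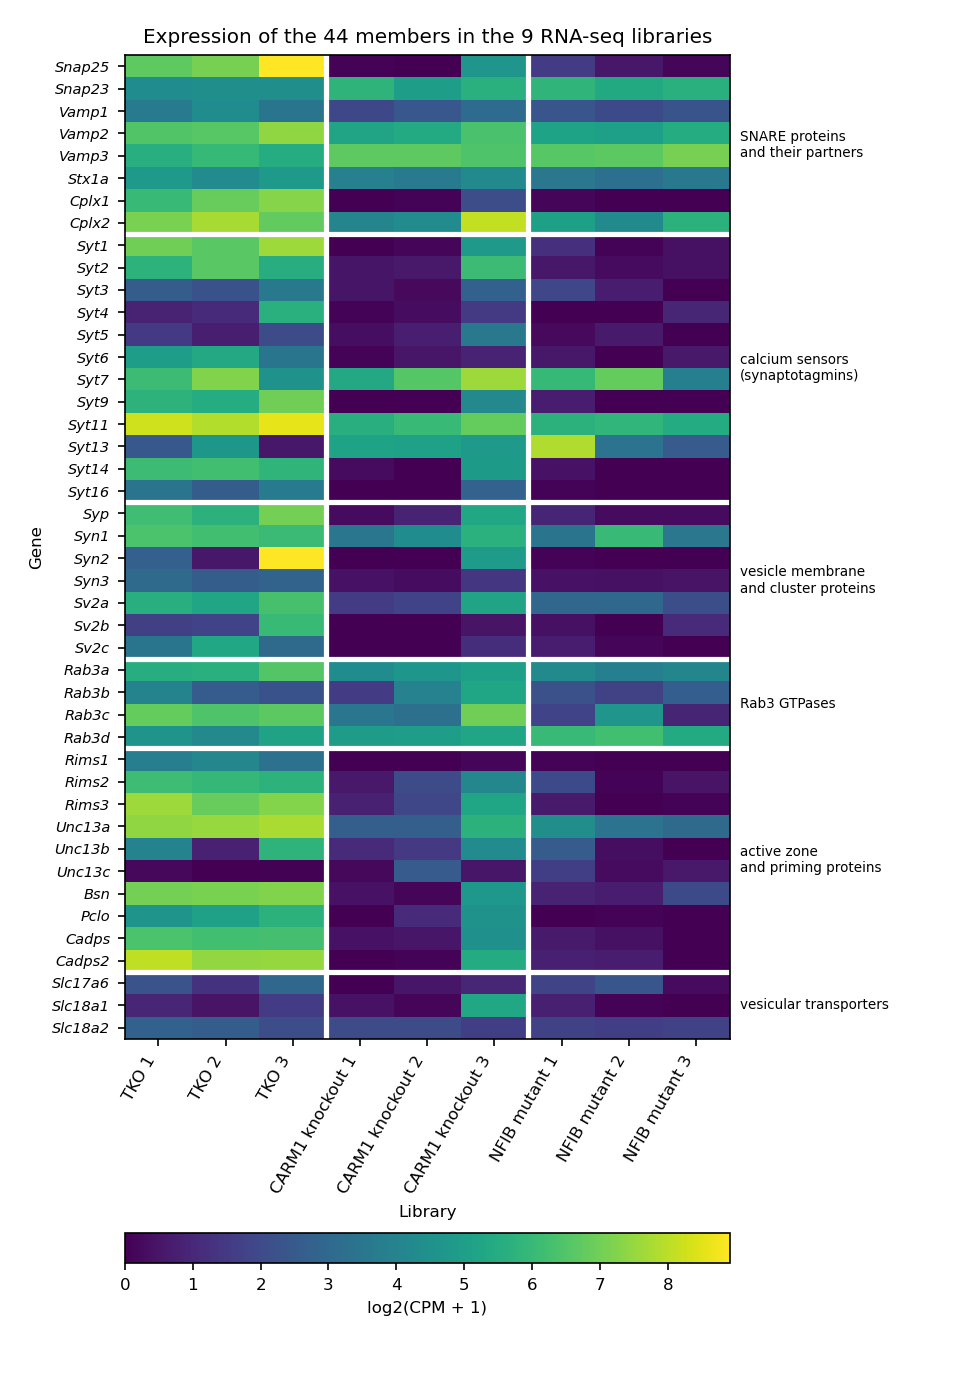
Expression of the 44 members (rows, by role) in the 9 RNA-seq libraries (columns), coloured by log2(CPM + 1). Most rows are bright in the 3 TKO columns and dark in 5 of the 6 mutant columns, CARM1 knockout replicate 3 keeps intermediate colours, and Snap23 and Vamp3 are brighter in the mutants.

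A gene was called changed at an adjusted p under 0.1 in edgeR's quasi-likelihood test (Benjamini-Hochberg over all 15514 genes tested) with a log2 fold change of at least 0.8 in size. Expression of the members was mostly lower in both mutants. Of 43 members tested, 14 were called lower and 2 higher in CARM1 knockout against TKO, where 18.3% of all genes were called lower and 20.5% higher (38.8% in either direction). In NFIB mutant against TKO, 30 were called lower and 3 higher, against 23.5% and 22.3% of all genes (45.8% in either direction). The members had a median log2 fold change of -2.14 in CARM1 knockout, where that of all genes was -0.03. In NFIB mutant tumors these medians were -3.95 and -0.05. All 14 members lower in CARM1 knockout were also called lower in NFIB mutant tumors, and Snap23 and Vamp3 were higher in both. Of all genes, 15.4% were called lower in both and 17.9% higher in both. Both comparisons share the TKO libraries. In 26 of the 44 members every mutant library was below every TKO library (23.3% of all genes tested), and in 2 every mutant library was above (22.3%). The 44th member, Unc13c, was left out by the low count filter.

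The count in CARM1 knockout turned on single libraries. Without CARM1 knockout replicate 3, 31 members were called lower (19.8% of genes) and 3 higher (19.8%). Those 31 included all 14 called with it, and 28 of the 31 were also among the 30 called lower in NFIB mutant tumors. Without CARM1 knockout replicate 1 or replicate 2 the count of lower calls was 7, and without TKO replicate 3 it was 9. Over all genes, lower calls were then 1962 and 2196 of 16327, and 2513 of 16014 without TKO replicate 3. Of the 14 calls, 7 held whichever library was left out (Cplx1, Syt6, Syt11, Syn3, Rab3a, Rims1 and Unc13a). Vamp1, Vamp2, Sv2b and Sv2c lost theirs in 3 of 9 such fits, Rims3 in 5, and Snap25 and Bsn in 8. In NFIB mutant tumors 21 of 30 lower calls held in every such fit, and Rab3c, Slc18a2, Sv2a, Sv2b, Sv2c, Syn2, Syt4, Syt9 and Syt16 lost theirs in at least 1.

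**Figure D2:**
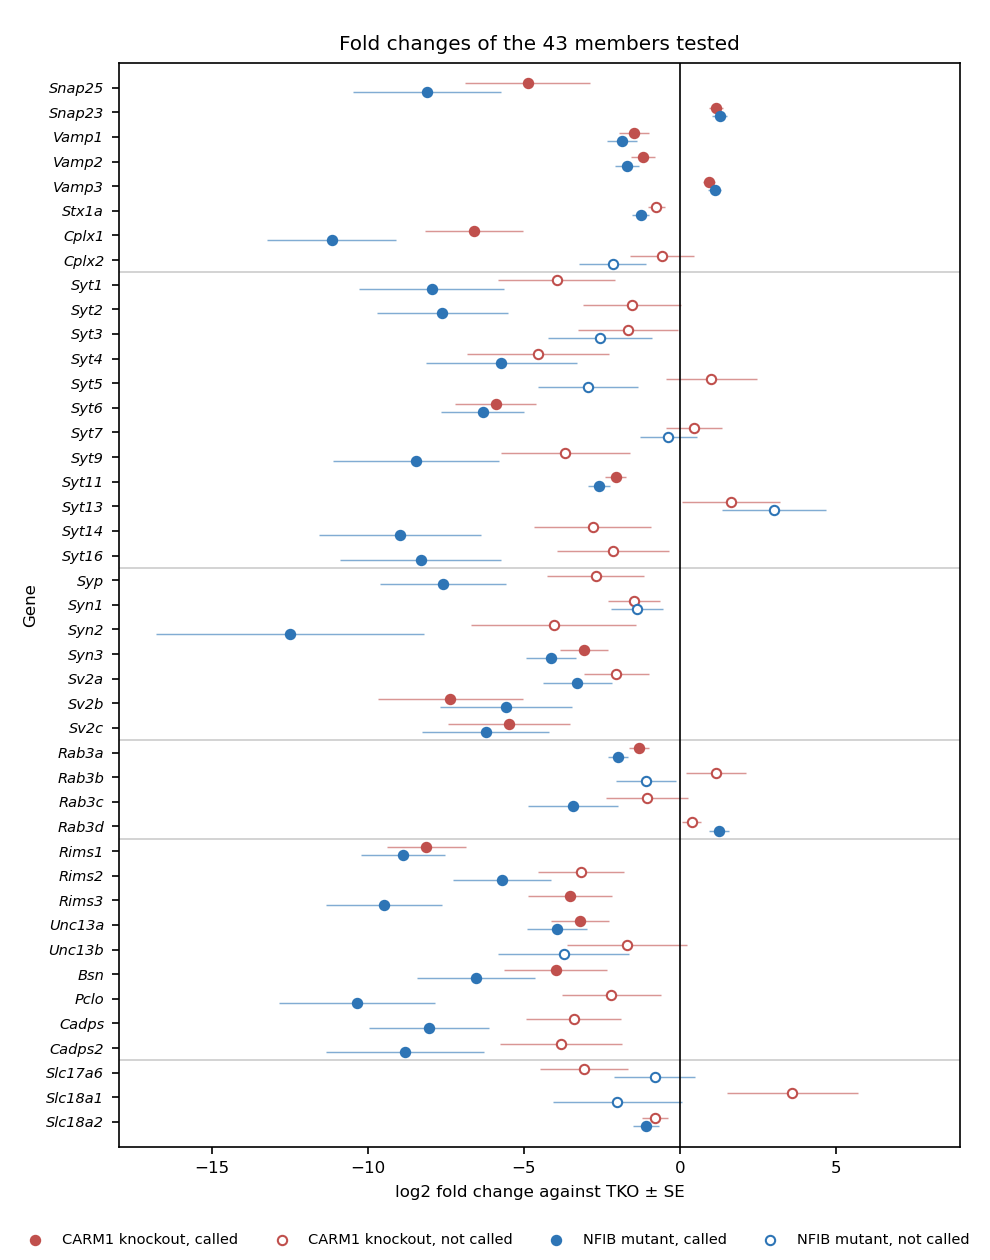
log2 fold change against TKO with its standard error (x axis) for the 43 members tested, in the order of the heat map (red, CARM1 knockout; blue, NFIB mutant; filled, called; open, not called). Values of Cplx1, Syn2, Syt16, Rims1 and Pclo in NFIB mutant and of Rims1 in CARM1 knockout rest on 3 or fewer mutant counts, so their position depends on the prior count. Most points lie left of 0, with Snap23, Vamp3 and, in NFIB mutant, Rab3d called on the right.

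SNARE proteins and their partners. Of 8 genes, 4 were called lower and 2 higher in CARM1 knockout (18.3% and 20.5% of all genes). NFIB mutant tumors had 5 lower and 2 higher (23.5% and 22.3% of all genes). The higher ones in both were the widely expressed paralogs, and their count was near the share of all genes. Snap25, which encodes the plasma membrane SNARE of neurons, was measured at 104, 136 and 479.9 CPM in TKO, 0.0678, 0 and 24.3 CPM in CARM1 knockout, and 1.95, 0.493 and 0.127 CPM in NFIB mutant libraries. All mutant libraries were below the lowest TKO library, and CARM1 knockout replicate 3 was the highest of the mutants. Its log2 fold change was -4.88 ± 2.002 (SE, adjusted p = 0.0914) in CARM1 knockout and -8.11 ± 2.36 (SE, adjusted p = 0.0271) in NFIB mutant tumors. The first of these calls was narrow, with an adjusted p from 0.104 to 0.199 in the 8 fits that lost it. Vamp2, the main synaptobrevin, gave 89.3, 96.7 and 174 CPM in TKO, 35.7, 42.3 and 80.3 CPM in CARM1 knockout, and 34.8, 31.6 and 44.5 CPM in NFIB mutant libraries, a smaller fall that left the gene well expressed. This was -1.18 ± 0.38 (SE, adjusted p = 0.0429) and -1.70 ± 0.38 (SE, adjusted p = 0.0107) on the log2 scale. Vamp1, a second neuronal synaptobrevin, gave 11.7, 19.1 and 10.1 CPM in TKO, 2.78, 4.37 and 7.58 CPM in CARM1 knockout, and 4.26, 2.96 and 4.003 CPM in NFIB mutant libraries, with log2 fold changes of -1.47 ± 0.48 (SE, adjusted p = 0.0457) and -1.86 ± 0.49 (SE, adjusted p = 0.0178). Stx1a, the syntaxin of the same complex, was at 27.4, 18.6 and 26.6 CPM in TKO, 13.6, 11.9 and 17.5 CPM in CARM1 knockout, and 10.6, 8.57 and 11.2 CPM in NFIB mutant libraries. It was called only in NFIB mutant tumors (-1.26 ± 0.27 SE, adjusted p = 0.00856), since its change in CARM1 knockout, -0.76 ± 0.27 (SE, adjusted p = 0.0588), was under the fold threshold.

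Snap23 gave 19.1, 20.5 and 20.6 CPM in TKO, 54.6, 30.9 and 49.6 CPM in CARM1 knockout, and 55.4, 41.9 and 49.6 CPM in NFIB mutant libraries. The TKO libraries were nearly equal and every mutant library was above them, with log2 fold changes of 1.16 ± 0.24 (SE, adjusted p = 0.00896) and 1.29 ± 0.24 (SE, adjusted p = 0.00496). Vamp3 was at 46.8, 61.1 and 45.2 CPM in TKO, 104, 102 and 85.8 CPM in CARM1 knockout, and 96.8, 101 and 134 CPM in NFIB mutant libraries with every mutant library above TKO and log2 fold changes of 0.93 ± 0.19 (SE, adjusted p = 0.00945) and 1.11 ± 0.19 (SE, adjusted p = 0.00385). Per gene length, Snap25 exceeded Snap23 by 3.44 to 14.7 times in TKO libraries, whereas the ratio of Snap25 to Snap23 was at most 0.310 in every mutant library. The ratio of Vamp2 to Vamp3 went from 1.20 to 2.91 in TKO to 0.237 to 0.710 in the mutants. Both paralogs kept their call when any single library was left out. Scaled by library totals alone, Vamp3 changed by 0.66 and 0.79 on the log2 scale and was under the fold threshold in both mutants.

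The complexins, which clamp the SNARE complex, differed in their calls. Cplx1 was at 63.0, 113 and 156 CPM in TKO, 0, 0.0583 and 3.31 CPM in CARM1 knockout, and 0.122, 0 and 0 CPM in NFIB mutant libraries, and was called lower in CARM1 knockout (-6.59 ± 1.58 SE, adjusted p = 0.0162). In NFIB mutant libraries 2 counts were found in all, so its level was 2676 times lower (95% interval 741 to 22098) than in TKO, the interval covering counting error only, and it was called lower (adjusted p = 0.00509). Cplx2 was at 136, 211 and 109 CPM in TKO, 15.7, 18.5 and 272 CPM in CARM1 knockout, and 32.8, 17.7 and 51.8 CPM in NFIB mutant libraries. CARM1 knockout replicate 3 exceeded every TKO library while the other mutant libraries were below TKO, and neither mutant was called (-0.57 ± 1.03 SE, adjusted p = 0.684 and -2.16 ± 1.07 SE, adjusted p = 0.135). Without that library Cplx2 was called lower in CARM1 knockout, at -3.11 (adjusted p = 0.00670).

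**Figure D3:**
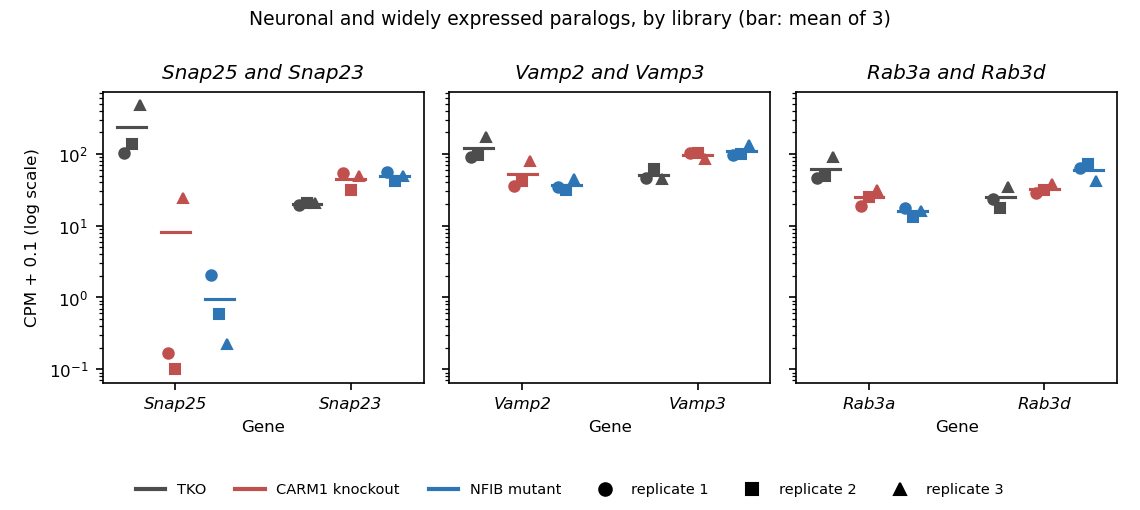
Expression (CPM + 0.1, log scale) of 3 pairs of paralogs in each library, by genotype (colour) and replicate (symbol), with bars at the mean of 3. Snap25, Vamp2 and Rab3a are highest in TKO, while Snap23 and Vamp3 in both mutants and Rab3d in NFIB mutant libraries are above TKO.

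Synaptotagmins. Of 12 synaptotagmins tested, 2 were called lower in CARM1 knockout against 8 in NFIB mutant tumors, and 0 were called higher in either. Of all genes, 18.3% and 23.5% were called lower and 20.5% and 22.3% higher. In CARM1 knockout the 2 lower calls were thus near the share of all genes. The count in CARM1 knockout was 8 without its replicate 3 (19.8% of all genes). Syt11, which binds no calcium itself and was the most highly expressed of them, was at 307, 232 and 380.5 CPM in TKO, 47.1, 65.0 and 109.8 CPM in CARM1 knockout, and 51.8, 57.5 and 43.5 CPM in NFIB mutant libraries. It fell in both mutants with little spread (-2.05 ± 0.33 SE, adjusted p = 0.00393 and -2.59 ± 0.34 SE, adjusted p = 0.00146). Syt6 was at 31.2, 40.1 and 10.1 CPM in TKO, 0.0678, 0.467 and 0.787 CPM in CARM1 knockout, and 0.486, 0 and 0.508 CPM in NFIB mutant libraries, and was called lower in both (-5.91 ± 1.30 SE, adjusted p = 0.0119 and -6.33 ± 1.33 SE, adjusted p = 0.00822). Syt1, the fast calcium sensor of neurotransmitter release, was at 126, 98.3 and 195 CPM in TKO, 0, 0.117 and 27.0 CPM in CARM1 knockout, and 1.28, 0.0616 and 0.318 CPM in NFIB mutant libraries. The mutant libraries were all below TKO. NFIB mutant was called (-7.96 ± 2.32 SE, adjusted p = 0.0274) and CARM1 knockout was not (-3.95 ± 1.89 SE, adjusted p = 0.134), its replicate 3 standing far above the other 2. Syt2, a close relative with the same function, was at 53.7, 98.98 and 45.4 CPM in TKO, 0.407, 0.525 and 67.7 CPM in CARM1 knockout, and 0.486, 0.185 and 0.318 CPM in NFIB mutant libraries, with CARM1 knockout replicate 3 inside the TKO range. Its log2 fold change was -7.61 ± 2.11 (SE, adjusted p = 0.0227) in NFIB mutant and -1.53 ± 1.56 (SE, adjusted p = 0.466) in CARM1 knockout tumors.

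Syt9, another fast sensor, was at 53.7, 45.2 and 125 CPM in TKO, 0, 0 and 17.5 CPM in CARM1 knockout, and 0.608, 0 and 0 CPM in NFIB mutant libraries. Syt14 was at 67.4, 72.8 and 56.5 CPM in TKO, 0.203, 0 and 28.1 CPM in CARM1 knockout, and 0.365, 0 and 0 CPM in NFIB mutant libraries. Both were called lower in NFIB mutant tumors (-8.46 ± 2.67 SE, adjusted p = 0.0358 and -8.98 ± 2.61 SE, adjusted p = 0.0269) and not in CARM1 knockout (adjusted p = 0.193 and 0.268), where replicate 3 alone kept a sizeable level. Without that library, the 2 remaining CARM1 knockout libraries held 0 counts of Syt9. Syt4, a synaptotagmin of dense core vesicles, was at 0.865, 1.09 and 49.4 CPM in TKO, 0.0678, 0.233 and 1.85 CPM in CARM1 knockout, and 0, 0 and 0.953 CPM in NFIB mutant libraries, so that its TKO mean rested on replicate 3. It was called lower in NFIB mutant tumors (-5.73 ± 2.42 SE, adjusted p = 0.0877), but without TKO replicate 3 its adjusted p was 0.514.

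A pair of synaptotagmins did not follow the rest. Syt7, a slow sensor also used outside neurons, was at 68.6, 147 and 22.1 CPM in TKO, 40.2, 94.2 and 192 CPM in CARM1 knockout, and 61.8, 109.5 and 13.3 CPM in NFIB mutant libraries, with all 3 groups overlapping and no call (0.46 ± 0.91 SE, adjusted p = 0.713 and -0.36 ± 0.91 SE, adjusted p = 0.763). Syt13 was at 4.52, 25.2 and 0.487 CPM in TKO, 34.6, 33.1 and 26.5 CPM in CARM1 knockout, and 231, 9.56 and 4.96 CPM in NFIB mutant libraries. Its level in NFIB mutant replicate 1 was far above every other library. That library also held 2212 CPM of lung epithelium markers, beside 86.2 and 0.889 CPM in NFIB mutant replicates 2 and 3, and the part of this in its Syt13 level was not tested. Neither mutant was called (1.64 ± 1.58 SE, adjusted p = 0.436 and 3.02 ± 1.66 SE, adjusted p = 0.170). Below a mean of 10 CPM in every genotype were Syt3, Syt5 and Syt16, with TKO means of 6.68, 1.94 and 8.74 CPM. Only Syt16 was called, lower in NFIB mutant tumors, where 1 count in all put it 423 times lower (95% interval 75.9 to 16704) than in TKO (adjusted p = 0.0341). Syt5 in CARM1 knockout replicate 3 stood at 10.7 CPM, above every other library.

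Vesicle membrane and cluster proteins. Of 7 members, 3 were called lower in CARM1 knockout (18.3% of all genes) against 6 in NFIB mutant tumors (23.5%). Without CARM1 knockout replicate 3 all 7 were called lower in CARM1 knockout (19.8% of all genes). Syp, the synaptophysin used in diagnosis, was at 71.7, 51.7 and 132 CPM in TKO, 0.203, 0.817 and 38.1 CPM in CARM1 knockout, and 0.912, 0.185 and 0.191 CPM in NFIB mutant libraries. The highest mutant library, CARM1 knockout replicate 3, was still below the lowest TKO library. The log2 fold change was -7.60 ± 2.01 (SE, adjusted p = 0.0193) in NFIB mutant tumors and -2.70 ± 1.57 (SE, adjusted p = 0.205) in CARM1 knockout, where it was called without replicate 3 (-7.30, adjusted p = 0.00430). The synapsins, which tether vesicles into clusters, differed among themselves. Syn1 was at 83.6, 73.0 and 67.1 CPM in TKO, 10.4, 19.3 and 51.0 CPM in CARM1 knockout, and 9.67, 65.3 and 10.7 CPM in NFIB mutant libraries, with every mutant library below TKO but NFIB mutant replicate 2 close to it, and it was called in neither mutant (-1.47 ± 0.84 SE, adjusted p = 0.197 and -1.38 ± 0.84 SE, adjusted p = 0.208). Syn2 was at 5.62, 0.481 and 472 CPM in TKO, 0, 0 and 28.7 CPM in CARM1 knockout, and 0.0608, 0 and 0 CPM in NFIB mutant libraries, and almost all of its expression in TKO came from replicate 3. With 1 count in all NFIB mutant libraries it was 7709.7 times lower (95% interval 1384 to 304518) than in TKO (adjusted p = 0.0476), a call that was lost in 4 of the 9 fits that left out 1 library, TKO replicate 3 among them. Syn3, at a TKO mean of 6.28 CPM, was called lower in both (-3.08 ± 0.77 SE, adjusted p = 0.0182 and -4.13 ± 0.81 SE, adjusted p = 0.00616).

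The SV2 proteins, vesicle glycoproteins and receptors of botulinum toxin, were all called lower in NFIB mutant tumors, and Sv2b and Sv2c in CARM1 knockout too. Sv2a was at 47.9, 37.9 and 79.5 CPM in TKO, 1.97, 2.45 and 36.0 CPM in CARM1 knockout, and 6.63, 6.84 and 3.37 CPM in NFIB mutant libraries, and was called in NFIB mutant tumors (-3.29 ± 1.11 SE, adjusted p = 0.0445) but not in CARM1 knockout (-2.03 ± 1.05 SE, adjusted p = 0.163). Sv2b was at 2.26, 2.49 and 65.2 CPM in TKO, 0, 0 and 0.393 CPM in CARM1 knockout, and 0.304, 0 and 1.14 CPM in NFIB mutant libraries, with log2 fold changes of -7.36 ± 2.33 (SE, adjusted p = 0.0418) and -5.58 ± 2.11 (SE, adjusted p = 0.0637). Sv2c was at 9.95, 39.4 and 7.36 CPM in TKO, 0, 0 and 1.24 CPM in CARM1 knockout, and 0.608, 0.123 and 0 CPM in NFIB mutant libraries, with log2 fold changes of -5.48 ± 1.94 (SE, adjusted p = 0.0607) and -6.23 ± 2.03 (SE, adjusted p = 0.0397). TKO replicate 3 held most of Sv2b and TKO replicate 2 most of Sv2c, and the calls of all 3 genes were lost in at least 1 of the fits that left out a library, in each mutant where they were made.

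Rab3 GTPases. Rab3a, the main isoform of synapses, was at 45.5, 49.5 and 90.0 CPM in TKO, 19.0, 24.8 and 31.5 CPM in CARM1 knockout, and 17.8, 13.3 and 16.1 CPM in NFIB mutant libraries. It fell in both mutants (-1.30 ± 0.32 SE, adjusted p = 0.0173 and -1.97 ± 0.32 SE, adjusted p = 0.00310) with no overlap between groups. Rab3d, the isoform of exocrine glands and other secretory cells, was at 23.5, 17.3 and 34.3 CPM in TKO, 28.9, 31.0 and 37.9 CPM in CARM1 knockout, and 64.6, 72.8 and 42.1 CPM in NFIB mutant libraries, and rose in NFIB mutant tumors (1.26 ± 0.31 SE, adjusted p = 0.0139). In CARM1 knockout its groups overlapped (0.38 ± 0.30 SE, adjusted p = 0.346). The ratio of Rab3a to Rab3d per gene length was 3.64 to 5.38 in TKO, 1.24 to 1.57 in CARM1 knockout and 0.343 to 0.719 in NFIB mutant libraries. Rab3c was at 111, 86.7 and 99.5 CPM in TKO, 10.3, 8.75 and 124 CPM in CARM1 knockout, and 2.43, 24.3 and 0.889 CPM in NFIB mutant libraries. CARM1 knockout replicate 3 was the highest library of all, and the gene was called in NFIB mutant tumors (-3.43 ± 1.43 SE, adjusted p = 0.0854) but not in CARM1 knockout (-1.05 ± 1.31 SE, adjusted p = 0.552). The NFIB mutant call was lost in 5 of 9 fits that left out 1 library. Rab3b was at 14.9, 5.03 and 3.77 CPM in TKO, 1.97, 14.4 and 36.5 CPM in CARM1 knockout, and 3.65, 2.28 and 5.27 CPM in NFIB mutant libraries, with overlapping groups and no call (1.15 ± 0.96 SE, adjusted p = 0.366 and -1.08 ± 0.96 SE, adjusted p = 0.382).

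Active zone and priming proteins. Of 9 members tested, 8 were called lower in NFIB mutant tumors (23.5% of all genes) and 4 of these also in CARM1 knockout (15.4% in both). Without CARM1 knockout replicate 3, 8 members were called lower in CARM1 knockout and 1 higher (19.8% and 19.8% of all genes). The RIM proteins link vesicles, through Rab3, to calcium channels. Rims1 was at 13.1, 16.6 and 8.995 CPM in TKO, 0, 0 and 0.112 CPM in CARM1 knockout, and 0.0608, 0 and 0 CPM in NFIB mutant libraries. The CARM1 knockout libraries held 2 counts in all, which put the level 320.4 times lower (95% interval 88.7 to 2646) than in TKO (adjusted p = 0.00330), and the NFIB mutant libraries held 1, which put it 624 times lower (95% interval 112 to 24657, adjusted p = 0.00220). Rims1 was the member for which CARM1 knockout replicate 3 came closest to 0 relative to TKO, at 0.871% of the TKO mean. Rims3 was at 191, 114 and 151 CPM in TKO, 0.746, 2.74 and 36.3 CPM in CARM1 knockout, and 0.547, 0 and 0.0635 CPM in NFIB mutant libraries, with log2 fold changes of -3.51 ± 1.35 (SE, adjusted p = 0.0763) and -9.48 ± 1.86 (SE, adjusted p = 0.00628). Rims2 was at 69.8, 59.8 and 53.8 CPM in TKO, 0.542, 3.09 and 16.6 CPM in CARM1 knockout, and 3.04, 0.0616 and 0.381 CPM in NFIB mutant libraries, and was called in NFIB mutant tumors only (-5.71 ± 1.56 SE, adjusted p = 0.0218, with -3.17 ± 1.38 SE, adjusted p = 0.106 in CARM1 knockout).

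Unc13a encodes Munc13-1, which opens syntaxin for assembly, and was at 170.4, 186 and 219 CPM in TKO, 5.49, 5.48 and 51.6 CPM in CARM1 knockout, and 20.3, 9.56 and 7.37 CPM in NFIB mutant libraries. It was called in both mutants with no overlap (-3.20 ± 0.92 SE, adjusted p = 0.0312 and -3.95 ± 0.96 SE, adjusted p = 0.0141). Unc13b (Munc13-2) was at 14.7, 0.744 and 54.9 CPM in TKO, 1.08, 1.81 and 18.9 CPM in CARM1 knockout, and 5.05, 0.247 and 0 CPM in NFIB mutant libraries, with widely spread TKO libraries and overlapping groups, and was not called (-1.69 ± 1.92 SE, adjusted p = 0.513 and -3.73 ± 2.10 SE, adjusted p = 0.179). Unc13c was at or under 0.144 CPM in TKO and up to 4.84 CPM in a mutant library (CARM1 knockout replicate 2).

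Bassoon (Bsn), a scaffold of the active zone, was at 131, 138 and 147 CPM in TKO, 0.339, 0.117 and 25.9 CPM in CARM1 knockout, and 0.790, 0.616 and 3.05 CPM in NFIB mutant libraries. It was called in both mutants (-3.98 ± 1.65 SE, adjusted p = 0.0943 and -6.54 ± 1.88 SE, adjusted p = 0.0261), in CARM1 knockout narrowly, with an adjusted p from 0.105 to 0.169 in the 8 fits that lost the call. Its partner Piccolo (Pclo) was at 23.2, 33.1 and 51.7 CPM in TKO, 0, 1.11 and 22.4 CPM in CARM1 knockout, and 0, 0.0616 and 0 CPM in NFIB mutant libraries. In NFIB mutant tumors 1 count in all put Pclo 1742 times lower (95% interval 313 to 68797) than in TKO (adjusted p = 0.0136), and in CARM1 knockout it was not called (-2.20 ± 1.59 SE, adjusted p = 0.301). The CAPS proteins, which prime dense core vesicles, were at nearly even levels in TKO. Cadps was at 82.7, 73.6 and 76.3 CPM in TKO, 0.339, 0.467 and 21.01 CPM in CARM1 knockout, and 0.547, 0.308 and 0 CPM in NFIB mutant libraries. Cadps2 was at 266, 176 and 182 CPM in TKO, 0, 0.0583 and 44.05 CPM in CARM1 knockout, and 0.729, 0.616 and 0 CPM in NFIB mutant libraries. Both were called lower in NFIB mutant tumors (-8.04 ± 1.93 SE, adjusted p = 0.0135 and -8.83 ± 2.54 SE, adjusted p = 0.0259). In CARM1 knockout they were called only without replicate 3, when Cadps changed by -7.51 (adjusted p = 0.00327).

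Vesicular transporters. These proteins fill vesicles with transmitter, and all 3 were low in TKO. The glutamate transporter Slc17a6 and the monoamine transporter Slc18a2 had TKO means of 4.05 and 4.80 CPM, and only Slc18a2 was called, lower in NFIB mutant tumors (-1.08 ± 0.42 SE, adjusted p = 0.0707), a call lost in 7 of 9 fits that left out 1 library. Slc18a1, the monoamine transporter of endocrine cells, was at 0.961, 0.394 and 1.91 CPM in TKO, 0.339, 0.117 and 39.7 CPM in CARM1 knockout, and 0.729, 0.0616 and 0 CPM in NFIB mutant libraries. CARM1 knockout replicate 3 alone brought it over 10 CPM, and it was called in neither mutant (3.62 ± 2.11 SE, adjusted p = 0.207 and -2.01 ± 2.07 SE, adjusted p = 0.453).

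Start-site accessibility. Most of the members' start-site peaks were lower in both mutants. For peaks, the adjusted p had to be under 0.1 and the log2 fold change at least 0.5 in size. Of 58 start-site peaks, 43 were called lower and 5 higher in CARM1 knockout, against 32.4% and 38.7% of the 111116 peaks tested (71.1% in either direction). In NFIB mutant tumors 45 were lower and 3 higher, against 34.0% and 39.3% (73.3% in either direction). In both mutants 43 were lower and 3 higher (30.8% and 35.0% of all peaks). Without CARM1 knockout replicate 3, 44 were lower and 4 higher in that genotype (31.7% and 37.2%). Among the start-site peaks of all genes, 35.1% were lower and 19.0% higher in CARM1 knockout, and 39.6% lower and 19.4% higher in NFIB mutant tumors. The median log2 fold change of the member peaks was -1.66 and -2.16, beside 0.22 and 0.22 over all peaks. Scaled by library totals alone, the split was 30 lower and 8 higher in CARM1 knockout and 39 lower and 8 higher in NFIB mutant tumors. Of all 111116 peaks, that scaling called 27254 lower and 52571 higher in CARM1 knockout. In NFIB mutant tumors it called 29271 lower and 52670 higher. In 43 of 58 peaks every mutant library was below every TKO library (28.6% of all peaks), and in 4 every mutant library was above (33.1%).

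Among the highest peaks of the members, the largest falls in NFIB mutant tumors were at Syt9, Cadps, Cadps2, Syt14 and Pclo. The Syt9 peak (chr7:107369513-107371826) was at 47.9, 38.8 and 45.1 CPM in TKO, 1.06, 1.71 and 6.17 CPM in CARM1 knockout, and 1.32, 0.577 and 0.687 CPM in NFIB mutant libraries, with log2 fold changes of -3.88 ± 0.60 (SE, adjusted p = 0.000409) and -5.68 ± 0.66 (SE, adjusted p = 7.9e-05). The Cadps peak (chr14:12820917-12823825) was at 74.6, 71.4 and 45.2 CPM in TKO, 0.723, 3.30 and 10.9 CPM in CARM1 knockout, and 2.21, 0.698 and 1.18 CPM in NFIB mutant libraries, and changed by -3.68 ± 0.77 (SE, adjusted p = 0.00205) and -5.56 ± 0.85 (SE, adjusted p = 0.000343). The Syt14 peak (chr1:193034496-193036701) was at 57.3, 59.6 and 43.98 CPM in TKO, 2.22, 1.57 and 11.4 CPM in CARM1 knockout, and 2.18, 1.23 and 0.530 CPM in NFIB mutant libraries, and changed by -3.41 ± 0.71 (SE, adjusted p = 0.00209) and -5.37 ± 0.79 (SE, adjusted p = 0.000284). At all 3 peaks the mutant libraries lay far below TKO, and CARM1 knockout replicate 3 was the highest mutant library.

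Among the SNARE genes, the Snap25 peak (chr2:136713111-136714600), which holds the pair of exact RE1 copies, was at 23.4, 21.4 and 31.5 CPM in TKO, 1.63, 1.44 and 5.78 CPM in CARM1 knockout, and 3.80, 1.30 and 1.31 CPM in NFIB mutant libraries. Its log2 fold changes were -3.11 ± 0.61 (SE, adjusted p = 0.00156) and -3.58 ± 0.63 (SE, adjusted p = 0.000753), called in both. The Cplx1 peak was at 41.3, 43.6 and 37.4 CPM in TKO, 3.13, 2.78 and 5.05 CPM in CARM1 knockout, and 2.33, 3.06 and 1.84 CPM in NFIB mutant libraries, with -3.48 ± 0.30 (SE, adjusted p = 2.4e-05) and -4.08 ± 0.31 (SE, adjusted p = 1.1e-05). The Vamp2 peak changed less, with 25.7, 26.0 and 24.6 CPM in TKO, 10.7, 15.2 and 13.8 CPM in CARM1 knockout, and 12.04, 12.9 and 14.2 CPM in NFIB mutant libraries and log2 fold changes of -0.94 ± 0.20 (SE, adjusted p = 0.00251) and -0.96 ± 0.20 (SE, adjusted p = 0.00206). Start sites of the risen paralogs were not called, although their expression was. Snap23 was at 18.8, 21.8 and 17.9 CPM in TKO, 18.7, 22.8 and 25.3 CPM in CARM1 knockout, and 21.1, 25.4 and 24.0 CPM in NFIB mutant libraries, with log2 fold changes of 0.19 ± 0.19 (SE, adjusted p = 0.384) and 0.27 ± 0.19 (SE, adjusted p = 0.220). Vamp3 was at 44.6, 40.05 and 41.9 CPM in TKO, 33.4, 40.4 and 36.8 CPM in CARM1 knockout, and 29.5, 38.9 and 35.3 CPM in NFIB mutant libraries, with -0.20 ± 0.15 (SE, adjusted p = 0.271) and -0.29 ± 0.15 (SE, adjusted p = 0.110). Stx1a went against its expression. Its peak was at 10.6, 10.8 and 11.5 CPM in TKO, 14.004, 15.4 and 17.7 CPM in CARM1 knockout, and 13.2, 16.6 and 13.97 CPM in NFIB mutant libraries, called higher in CARM1 knockout (0.52 ± 0.22 SE, adjusted p = 0.0530) and not in NFIB mutant tumors (0.41 ± 0.22 SE, adjusted p = 0.109), and the call in CARM1 knockout was lost when 1 library was left out.

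The highest peaks of all 7 vesicle membrane and cluster genes were called lower in both mutants (30.8% of all peaks). Syp (chrX:7638087-7640340), with its exact RE1 copy, was at 15.7, 15.6 and 13.2 CPM in TKO, 1.83, 1.98 and 3.51 CPM in CARM1 knockout, and 2.24, 1.64 and 2.14 CPM in NFIB mutant libraries and changed by -2.61 ± 0.38 (SE, adjusted p = 0.000308) and -2.89 ± 0.38 (SE, adjusted p = 0.000165). Syn1, whose expression was not called, had a peak at 24.9, 20.3 and 22.3 CPM in TKO, 11.1, 13.04 and 13.5 CPM in CARM1 knockout, and 9.71, 11.6 and 10.9 CPM in NFIB mutant libraries and log2 fold changes of -0.84 ± 0.21 (SE, adjusted p = 0.00482) and -1.07 ± 0.21 (SE, adjusted p = 0.00129). All 4 Rab3 genes also had a lower peak in both (30.8% of all peaks). Rab3d was among them, with 33.7, 30.2 and 28.8 CPM in TKO, 17.2, 20.5 and 17.7 CPM in CARM1 knockout, and 16.9, 23.0 and 19.2 CPM in NFIB mutant libraries and log2 fold changes of -0.74 ± 0.18 (SE, adjusted p = 0.00486) and -0.65 ± 0.18 (SE, adjusted p = 0.00918), while its expression rose in NFIB mutant tumors. The highest peaks of Rab3b, Slc18a1, Syt3 and Syt5 were called lower in both mutants as well (log2 fold changes from -2.90 to -0.87), though none of these genes was called in expression.

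Unc13a and Syt7 had start sites called in opposite directions. Of the 3 Unc13a peaks, the main one (chr8:71669708-71672405) was at 54.1, 60.04 and 55.5 CPM in TKO, 27.9, 27.7 and 35.8 CPM in CARM1 knockout, and 27.6, 32.3 and 30.5 CPM in NFIB mutant libraries and fell (-0.89 ± 0.15 SE, adjusted p = 0.000703 and -0.91 ± 0.15 SE, adjusted p = 0.000567). A neighbouring peak (chr8:71667426-71669145) was at 3.12, 4.54 and 1.99 CPM in TKO, 14.1, 7.03 and 11.9 CPM in CARM1 knockout, and 11.5, 16.5 and 17.1 CPM in NFIB mutant libraries and rose (1.77 ± 0.39 SE, adjusted p = 0.00279 and 2.22 ± 0.40 SE, adjusted p = 0.000822). Syt7 had a main peak that was not called and 2 small internal ones. The internal peak with the exact RE1 copy (chr19:10403195-10403581) was at 0.733, 0.124 and 0.169 CPM in TKO, 1.24, 1.13 and 1.48 CPM in CARM1 knockout, and 1.70, 0.938 and 1.24 CPM in NFIB mutant libraries and was called higher (1.88 ± 0.66 SE, adjusted p = 0.0272 and 1.89 ± 0.66 SE, adjusted p = 0.0256). The next peak (chr19:10403944-10404779), at 2.36, 2.90 and 4.56 CPM in TKO, 0.310, 0.2496 and 0.435 CPM in CARM1 knockout, and 0.717, 0.337 and 0.334 CPM in NFIB mutant libraries, was called lower (-3.29 ± 0.55 SE, adjusted p = 0.000643 and -2.83 ± 0.54 SE, adjusted p = 0.00117). Munc13 family start sites were also among those called higher, with Unc13c (chr9:73968399-73969114) at 0.255, 0.278 and 0.845 CPM in TKO, 2.20, 4.34 and 2.13 CPM in CARM1 knockout, and 1.82, 2.24 and 1.53 CPM in NFIB mutant libraries and changes of 2.67 ± 0.59 (SE, adjusted p = 0.00288) and 2.04 ± 0.58 (SE, adjusted p = 0.0101). The main Unc13b peak was called lower in NFIB mutant tumors (-1.89 ± 0.54 SE, adjusted p = 0.0102) and not in CARM1 knockout (-0.93 ± 0.53 SE, adjusted p = 0.141). An internal Unc13b start site (chr4:43209003-43209953) was at 0.701, 0.247 and 1.31 CPM in TKO, 3.31, 4.34 and 4.23 CPM in CARM1 knockout, and 0.956, 1.35 and 2.59 CPM in NFIB mutant libraries and was called higher in CARM1 knockout only (2.41 ± 0.62 SE, adjusted p = 0.00638, with 1.13 ± 0.61 SE, adjusted p = 0.117 in NFIB mutant tumors).

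**Figure D4:**
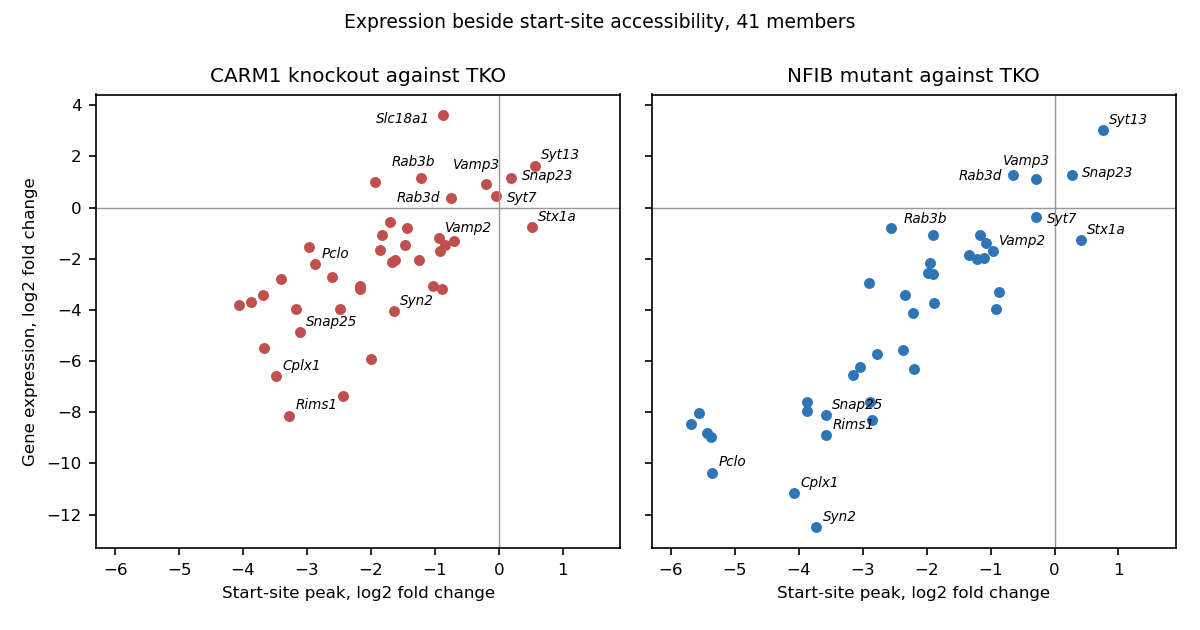
log2 fold change of expression (y axis) against that of the highest start-site peak (x axis) for the 41 members with both values, in CARM1 knockout (left) and NFIB mutant (right) against TKO. Points run from lower left to near 0. Snap23, Vamp3 and Syt13 lie above 0 in expression and near or above 0 in accessibility, while Slc18a1, Rab3b, Syt5 and Rab3d in CARM1 knockout and Rab3d in NFIB mutant lie above 0 in expression with accessibility below 0.

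Expression and accessibility moved in the same direction in 34 of 41 members in CARM1 knockout (82.9%) and in 38 of 41 in NFIB mutant tumors (92.7%). Over all 13944 genes tested with a start-site peak, these shares were 66.0% and 66.3%. Across these members, which share libraries and so are not independent, Pearson's r was 0.68 and 0.87 and Spearman's rho 0.74 and 0.88, beside r of 0.73 and 0.79 and rho of 0.62 and 0.65 over all those genes. Both the gene and its highest peak were called lower in 13 members in CARM1 knockout (31.7%, against 11.6% of all those genes) and 27 in NFIB mutant tumors (65.9% against 16.8%). The peak was called lower while the gene was not called in 21 members in CARM1 knockout (51.2% against 22.8%) and 8 in NFIB mutant tumors (19.5% against 23.1%). Without CARM1 knockout replicate 3, of 42 members 29 had both called lower in that genotype and 6 the peak alone. The shares of all genes in that fit were not counted.

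CARM1 knockout replicate 3 stood apart from the other mutant libraries. Over the 35 members at 10 CPM or more in TKO, its median expression was 42.9% of the TKO mean, beside 0.616% and 2.86% in CARM1 knockout replicates 1 and 2 and 2.45%, 0.445% and 1.87% in the NFIB mutant libraries. It exceeded both other CARM1 knockout libraries in 32 of 35 members, which 33.2% of 9854 genes at that level did. It exceeded all 5 other mutant libraries in 29 (18.7% of those genes). The ATAC-seq library of the same number stood apart less, at a median of 36.9% of the TKO mean over the 42 highest peaks, beside 22.5% and 27.5% in replicates 1 and 2 and 17.2% to 24.96% in NFIB mutant libraries. It exceeded both other CARM1 knockout libraries at 26 of 42 peaks (37.97% of 20857 start-site peaks of all genes). In it, 34 of 42 peaks were below every TKO library. In RNA-seq, 24 of the 35 members were below every TKO library in replicate 3. The shares of all start-site peaks and all genes below TKO in these libraries were not counted. Whether these values are particular to the members was therefore not tested. The paper states that both assays used the same biopsies. The labels do not say whether RNA-seq and ATAC-seq libraries of 1 number came from the same animal. As given above, this RNA-seq library held both neuroendocrine and fibroblast markers at high levels. It was also the highest of the 9 libraries in the leukocyte (2702 CPM) and endothelium (74.0 CPM) sums, and held 422 CPM of lung epithelium markers beside 2.37 and 6.30 CPM in CARM1 knockout replicates 1 and 2. The part of these markers in its values was not tested.

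**Figure D5:**
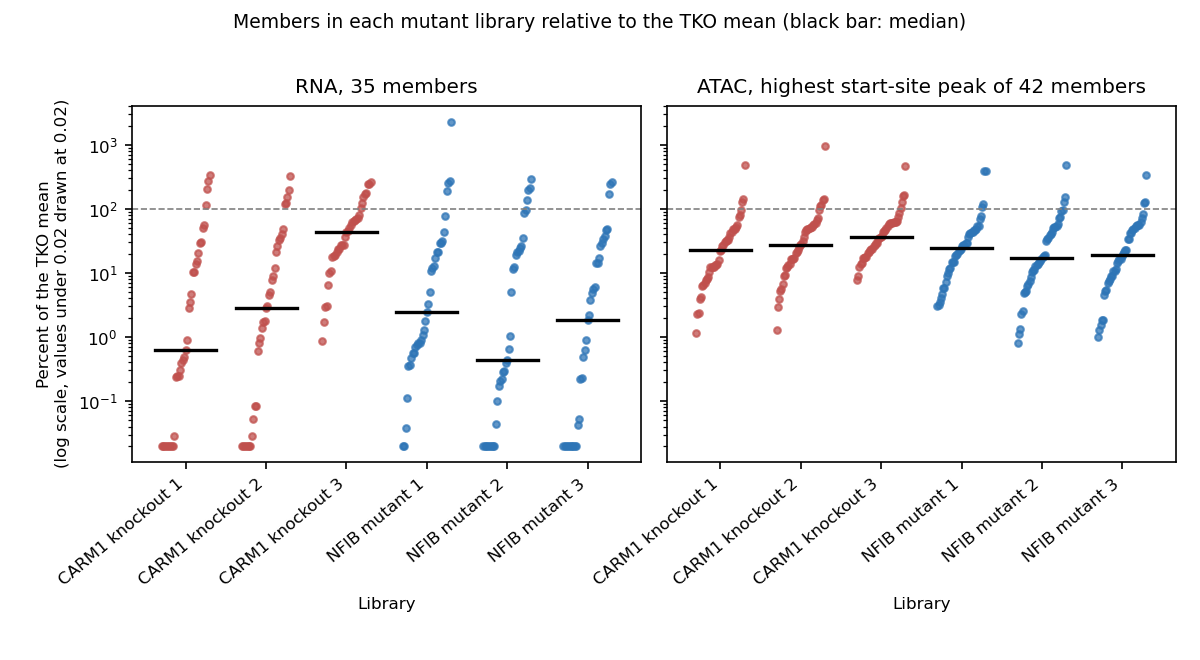
Expression of 35 members (left) and accessibility of the highest start-site peak of 42 members (right) in each mutant library, as a percent of the TKO mean on a log scale, with the median as a black bar and 100% dashed. In expression CARM1 knockout replicate 3 has a median of 42.9% and the other mutant libraries have medians under 3%, while in accessibility the medians lie between 17.2% and 36.9%.

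The mutants were then compared with each other. No member was called between CARM1 knockout and NFIB mutant by edgeR (0 of 15514 genes, 0.0%), and 11 members had an unadjusted p under 0.05, as had 1414 genes in all. DESeq2's Wald test called 316 of 17295 genes higher and 222 lower in CARM1 knockout. Among them were 4 members, all higher in CARM1 knockout, namely Syt2 (log2 fold change 6.11), Syp (4.92), Rims3 (6.02) and Pclo (8.45). In each of these 4 genes CARM1 knockout replicate 3 was the highest mutant library. No start-site peak was called by edgeR (0 of 111116 peaks, 0.0%), 8 member peaks and 6813 peaks in all had an unadjusted p under 0.05, and DESeq2 called 1 member peak, the Pclo peak (2.44, higher in CARM1 knockout). Of 111002 peaks in all, DESeq2 called 523 higher and 537 lower in CARM1 knockout.

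Other genes of exocytosis and vesicle recycling, 68 in all, were called in both directions. Of 58 tested, 14 were called lower and 12 higher in CARM1 knockout, and 25 lower and 14 higher in NFIB mutant tumors. As shares these were 24.1% and 20.7% in CARM1 knockout, beside 18.3% and 20.5% of all genes, and 43.1% and 24.1% in NFIB mutant tumors, beside 23.5% and 22.3%. In CARM1 knockout 21 were lower and 11 higher without its replicate 3 (19.8% and 19.8% of all genes). In both mutants 14 were called lower and 11 higher (15.4% and 17.9% of all genes). Among the falls, Doc2a, a soluble calcium sensor, was at 20.2, 8.75 and 2.44 CPM in TKO, 0.0678, 0 and 0.281 CPM in CARM1 knockout, and 0, 0.0616 and 0 CPM in NFIB mutant libraries. Rims4, a short RIM protein, was at 26.8, 11.2 and 29.2 CPM in TKO, 0, 0 and 0.787 CPM in CARM1 knockout, and 0.243, 0 and 0 CPM in NFIB mutant libraries. Both were near or under 1 CPM in every mutant library, with log2 fold changes of -6.39 ± 1.42 (SE, adjusted p = 0.0121) and -6.36 ± 1.80 (SE, adjusted p = 0.0288) in CARM1 knockout. Ppfia2, a liprin of the active zone, was at 50.8, 28.7 and 28.8 CPM in TKO, 0, 0 and 3.09 CPM in CARM1 knockout, and 0.426, 0.0616 and 0.635 CPM in NFIB mutant libraries. Amph (amphiphysin) was at 43.2, 33.8 and 48.9 CPM in TKO, 0.203, 3.21 and 9.72 CPM in CARM1 knockout, and 2.19, 0.247 and 0.318 CPM in NFIB mutant libraries. The log2 fold changes of Ppfia2 and Amph were -5.11 and -3.26 in CARM1 knockout and -6.57 and -5.50 in NFIB mutant tumors.

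Among the rises, Vamp8 (endobrevin), a SNARE of endosomes and secretory granules outside neurons, was at 2.31, 4.37 and 0.310 CPM in TKO, 48.1, 49.8 and 46.6 CPM in CARM1 knockout, and 71.9, 53.0 and 65.1 CPM in NFIB mutant libraries. It rose by 4.36 ± 0.77 (SE, adjusted p = 0.00546) and 4.76 ± 0.79 (SE, adjusted p = 0.00332). Synj2, a phosphatase of endocytosis, was at 11.3, 9.80 and 10.3 CPM in TKO, 63.2, 78.6 and 64.1 CPM in CARM1 knockout, and 69.2, 61.6 and 105 CPM in NFIB mutant libraries, and rose by 2.71 ± 0.24 (SE, adjusted p = 0.000459) and 2.91 ± 0.24 (SE, adjusted p = 0.000301). Dynamin 1 (Dnm1), best known from synaptic endocytosis, also rose, at 27.3, 14.7 and 36.2 CPM in TKO, 62.3, 82.1 and 67.9 CPM in CARM1 knockout, and 149, 184 and 81.6 CPM in NFIB mutant libraries, by 1.44 ± 0.39 (SE, adjusted p = 0.0245) and 2.41 ± 0.40 (SE, adjusted p = 0.00334). Syt12 was at 0.577, 0.306 and 0.753 CPM in TKO, 9.35, 33.2 and 3.03 CPM in CARM1 knockout, and 2.86, 4.25 and 8.70 CPM in NFIB mutant libraries. Sytl2, a Rab27 effector of secretory granules, was at 1.25, 1.05 and 0.177 CPM in TKO, 7.12, 17.7 and 3.71 CPM in CARM1 knockout, and 26.0, 8.94 and 13.02 CPM in NFIB mutant libraries. Their log2 fold changes were 4.78 and 3.52 in CARM1 knockout and 3.26 and 4.26 in NFIB mutant tumors.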

How the data were processed

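RNA-seq counts per gene were deposited by the authors as raw counts, made from reads aligned to mm10 (GRCm38) with HISAT2 and htseq-count per the study's methods; replicates were not pooled. The 5 summary entries (11.6 to 21.2% of counts) were left out. ATAC-seq counts per peak were deposited as raw counts over 1 merged peak set (featureCounts 1.6.3 per the file header, Bowtie2 and duplicate removal per the methods). Column letters C, KO and N were read as TKO, CARM1 knockout and NFIB mutant. Counting by strand was not stated.

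All features were fitted with edgeR 4.0.16 (TMM, filterByExpr, robust quasi-likelihood test, genotype as the only term, all 9 libraries) and adjusted by Benjamini-Hochberg; thresholds followed the study. DESeq2 1.42.0 was an alternative. Each SE of an edgeR fold change was derived as the size of the log2 fold change over the square root of the test's F statistic. It was not estimated separately. Where mutant counts summed to 3 or fewer, a ratio with an exact Poisson 95% interval replaced the fold change. Gene models came from GENCODE M21, in which 68 of 69 other pathway genes were found. The fit was tested on simulated data. Members with a mean of at least 10 CPM in any genotype were described by library, as were the other pathway genes with the largest mean changes among those called. Some planned items are not reported here. Members and lists were chosen with earlier results of these data known.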

Additional observations from a re-analysis of the deposited data

How the results depend on the processing

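Fits with other scalings, filters, tools and sets of libraries kept most counts within 1.5 times of the reported ones. With at least 10 counts required in every library, 9 members were called in CARM1 knockout (7 lower) and 12 in NFIB mutant tumors (9 lower), since members near 0 in the mutants were no longer tested, and 2 peaks were called higher in CARM1 knockout. Of the 10947 genes left, 2072 were lower and 2032 higher in CARM1 knockout, and 2276 and 2244 in NFIB mutant tumors. Of the 65496 peaks left, 20978 were higher in CARM1 knockout. Scaling by library totals alone left 1 member higher in CARM1 knockout, gave 8 peaks higher in each mutant, and turned the main Syt7 peak in CARM1 knockout to a log2 fold change of 0.58. Totals without the 11 peaks over 0.5% of counts, and start-site peaks of uniformly expressed genes, each gave 6 peaks higher in NFIB mutant tumors, where 49295 and 50984 of all 111116 peaks were higher. The cause of these moves was not tested, but library totals moved the median of all peaks from 0.22 to 0.79 on the log2 scale in both mutants, and the median of all genes to -0.30 and -0.37. DESeq2 called 4 members and 1 peak between the mutants, all higher in CARM1 knockout, where it called 316 genes and 523 peaks higher in all. Leaving out 1 library at a time gave 9 to 34 members called in CARM1 knockout (7 to 31 lower, 2 to 3 higher), 27 to 36 in NFIB mutant tumors (24 to 32 lower, 3 to 4 higher), 45 to 50 peaks in CARM1 knockout (40 to 46 lower, 4 to 5 higher) and 47 to 50 in NFIB mutant tumors (44 to 46 lower, 3 to 4 higher), and 0 between the mutants. Of all genes, 1962 to 3209 were then lower and 2707 to 3428 higher in CARM1 knockout. NFIB mutant tumors had 2902 to 3789 lower and 3132 to 3662 higher. Of all peaks, 32531 to 36270 were lower and 38944 to 44357 higher in CARM1 knockout. NFIB mutant tumors had 35804 to 37907 peaks lower and 39741 to 44747 higher. In these fits 7 of 14 lower calls in CARM1 knockout (Cplx1, Rab3a, Rims1, Syn3, Syt11, Syt6 and Unc13a) and 21 of 30 in NFIB mutant tumors were kept throughout, as were the calls of Snap23, Vamp3 and Rab3d. Replicate numbers did not pair the samples (correlations of same-numbered libraries from -0.23 to 0.12 in RNA-seq and -0.14 to 0.10 in ATAC-seq). With a replicate block, CARM1 knockout had 18 members (16 lower) and 48 peaks called, and NFIB mutant tumors had 32 members (29 lower) and 49 peaks. That fit called 2519 of 15514 genes lower and 2966 higher in CARM1 knockout, and 3276 and 3232 in NFIB mutant tumors. Of 111116 peaks, 34508 were lower and 42140 higher in CARM1 knockout, and 36770 and 42607 in NFIB mutant tumors. With 3 animals per genotype, members that vary widely among TKO tumors or between CARM1 knockout libraries could change several-fold without being called.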
